A study of Mus musculus with 6 samples.

Results

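A set of 10 genes that encode peptide and amino acid carriers was followed through intestinal ischemia/reperfusion (I/R). The set was chosen as a list of gene symbols, with earlier results of these data known. It held Slc15a1, Slc6a19, Slc1a1, Slc3a1, Slc7a9, Slc3a2, Slc7a7, Slc7a8, Slc7a5 and Slc6a6. All 10 were present among the 12327 genes of the table, and all 10 passed the filter on low values. RNA sequencing covered small intestine of C57BL/6 mice aged 8 weeks, with 3 libraries of the I/R group (replicates 6, 7 and 9) and 3 libraries of the sham group (replicates 1, 3 and 5). Per the study's methods the mice were male, the superior mesenteric artery was occluded and then reopened in the I/R group, and sham mice had the same surgery without occlusion. The labels name neither the segment of the small intestine nor whether each library was 1 animal, and p-values therefore cover only the spread among these libraries, which may be technical. Levels are FPKM (fragments scaled by transcript length and by the mapped total), summed over the listed transcripts of a gene. Because FPKM are per length, levels of different genes can be set side by side.

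Dietary protein reaches the absorptive enterocyte as small peptides and free amino acids. The brush border carries a proton-coupled peptide transporter and several amino acid transporters, many of them driven by sodium, and a second set of carriers on the basolateral side passes amino acids to the blood. Some of these carriers are heterodimers, in which a glycoprotein heavy chain brings a catalytic light chain to the membrane. Many of them are unevenly expressed along the length of the gut.

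None of the 10 genes passed the adjusted threshold of 0.05 between I/R and sham in either direction, where 0.0333% of the 12006 genes tested did, 0.0167% on the higher and 0.0167% on the lower side (limma, Benjamini-Hochberg adjustment). None of their 17 listed transcripts passed either, against 0.0329% of all transcripts tested. Of the 10 carriers, 9 had a lower mean in I/R on the log2 scale and 1, the taurine transporter Slc6a6, had a higher one. Over all genes tested, 37.4% had a lower and 62.6% a higher mean. The groups did not overlap for Slc6a19, which was lower in I/R, and for Slc6a6, which was higher. Over all genes, 5.89% did not overlap on the lower side and 10.6% on the higher side. Both also had an unadjusted p below 0.05, as 8.94% of all genes did, 5.56% on the higher and 3.38% on the lower side. The median log2 fold change of the 10 genes was -0.32, against 0.12 for all genes tested, and each gene's difference stands against that value. In bulk tissue, fewer enterocytes and less RNA per enterocyte cannot be told apart. With 3 against 3 libraries, the smallest 2-sided exact permutation p is 0.1.

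**Figure D1:**
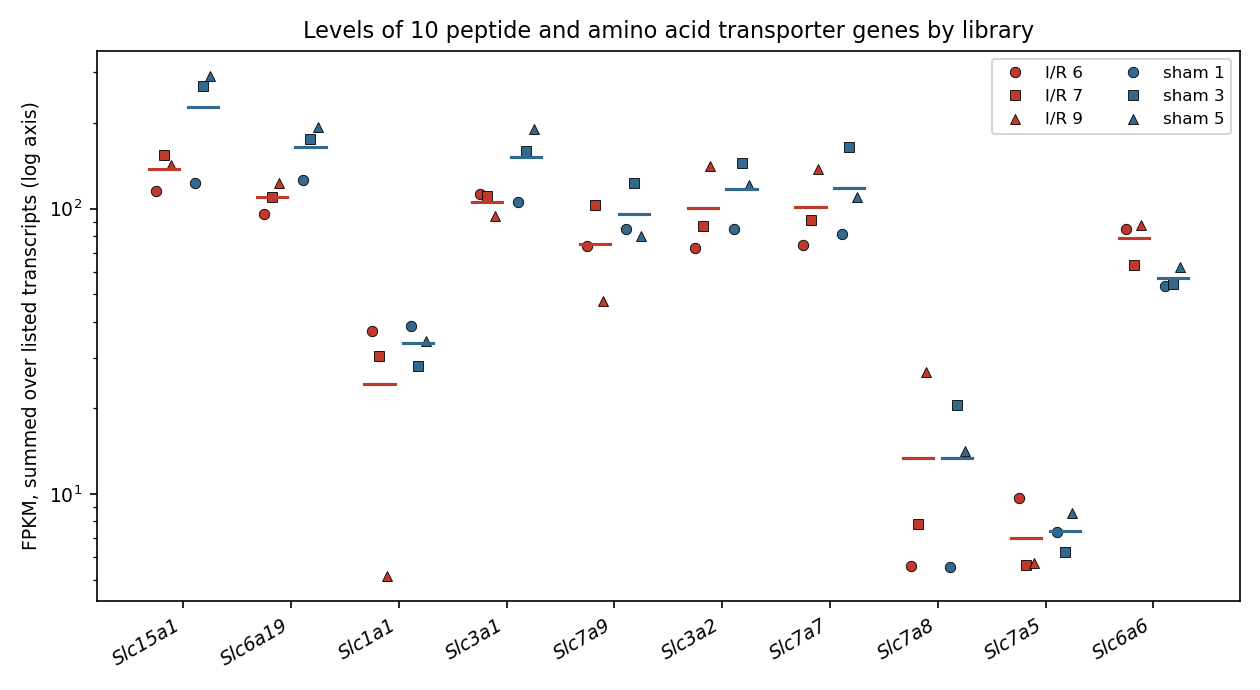
FPKM of the 10 transporter genes on a log axis, with 1 point per library (I/R red and left, sham blue and right) and a line at each group mean. I/R replicate 9 stands low for Slc1a1 (5.16 FPKM) and high for Slc7a8 (26.8 FPKM), and sham replicate 1 lies near the I/R points for Slc15a1 and Slc3a1.

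Libraries of the same group differed in markers of gut position. Lct, Fabp1 and Gata4, genes of the proximal gut, were highest in I/R replicate 9 and lowest in sham replicate 1. The intestinal transcription factor Gata4 was at 1.55, 4.65 and 27.7 FPKM in the I/R libraries (in the order 6, 7 and 9), against 1.11, 7.73 and 7.26 FPKM in sham (replicates 1, 3 and 5). Values below keep this order of replicates. The other measured markers of the proximal list did not share this pattern. The iron exporter Slc40a1 was at 9.74, 5.28 and 1.06 FPKM in I/R and 19.3, 2.62 and 5.93 FPKM in sham, lowest in I/R replicate 9 and highest in sham replicate 1. Ada, adenosine deaminase, was at 134.7, 83.6 and 109.0 FPKM in I/R and 178.2, 500.3 and 260.5 FPKM in sham. Fabp6, the bile acid binding protein of the ileum, was at 2903, 2396 and 5.76 FPKM in I/R and at 5201, 956.5 and 1319 FPKM in sham. Like Fabp6, the distal markers Slc10a2, Slc51a and Cubn were lowest in I/R replicate 9 and highest in sham replicate 1. Slc51b was also lowest in I/R replicate 9 but highest in I/R replicate 7. Amn, on the same list, did not share this pattern. It was at 59.0, 75.8 and 65.4 FPKM in I/R and 81.5, 149.0 and 99.9 FPKM in sham. A position index, the mean log2(FPKM + 1) of 5 measured proximal markers minus that of 6 distal markers, was -2.91, -2.82 and 1.72 in I/R and -4.23, -1.20 and -1.24 in sham. By this mean of markers that did not all move alike, sham replicate 1 lay at the distal end of the index and I/R replicate 9 at the proximal end, with each group spread along it. Some of its markers also differed by group. Ada and Amn were lower in every I/R library than in every sham library. On the log2 scale, all 6 distal markers had a lower mean in I/R. Estimates with the index as a covariate can therefore not separate gut position from the I/R difference in these markers. The epithelial genes were abundant in all 6 libraries. Vil1, a microvillus protein of enterocytes, was at 646.0 to 848.6 FPKM in I/R and 713.8 to 1068 FPKM in sham, and none of the 6 pancreatic markers was listed.

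Markers of other tissue layers also varied between libraries. The summed level of 6 smooth muscle markers was 817.2, 762.4 and 27.4 FPKM in I/R and 598.7, 254.8 and 124.7 FPKM in sham. The sum of 6 lymphocyte markers was 74.1 to 153.2 FPKM in I/R, against 209.0 FPKM in sham replicate 1 and 13.4 and 12.3 FPKM in sham replicates 3 and 5. The 12 enterocyte markers summed to 8516 to 16214 FPKM in I/R and 9408 to 19229 FPKM in sham. Goblet markers (6) summed to 1555 to 2934 FPKM in I/R and 2163 to 4325 FPKM in sham, and Paneth markers (5) to 75.3 to 285.3 FPKM in I/R and 45.4 to 1810 FPKM in sham. The 6 proliferation markers reached 132.4 to 156.2 FPKM in I/R and 66.3 to 119.3 FPKM in sham, the one list here whose sums did not overlap. Myeloid markers (6) came to 15.3 to 31.1 FPKM in I/R and 5.60 to 22.1 FPKM in sham, where S100a8 was at 0 throughout. For 4 measured red cell markers the sum was 62.9 to 185.3 FPKM in I/R and 18.8 to 92.1 FPKM in sham, and for 3 adipocyte markers 18.5 to 157.6 FPKM in I/R, with Adipoq and Plin1 at 0 in replicate 9, and 27.6 to 96.7 FPKM in sham. Sums were 6.52 to 16.0 FPKM in I/R and 2.04 to 16.3 FPKM in sham for 3 endothelial markers, and 3.77 to 11.5 FPKM in I/R and 2.28 to 8.88 FPKM in sham for 3 neuronal and glial markers. The part of all these differences in the results that follow was not tested. Fits with the position index do not test it either, for the reason given above. The index also holds no marker of muscle, lymphocytes or goblet cells.

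The peptide transporter Slc15a1 (PepT1), which takes up di- and tripeptides with protons across the brush border, had the highest mean of the 10 genes in both groups. It lies on chromosome 14 (121459621 to 121505252, minus strand, mm10), and 1 transcript of 23 exons was listed. Its level was 115.5, 154.1 and 141.8 FPKM in I/R replicates 6, 7 and 9, against 123.2, 267.8 and 292.1 FPKM in sham replicates 1, 3 and 5. All I/R libraries were below sham replicates 3 and 5, but sham replicate 1 fell inside the I/R range. The means were 137 ± 19.7 FPKM in I/R and 228 ± 91.3 FPKM in sham (SD, n = 3 each). This was a log2 difference of -0.64 ± 0.35 (standard error) with a 95% interval of -1.48 to 0.20, an adjusted p by limma of 0.624 and, by exact permutation, p = 0.3. The log2 difference was -1.03 when sham replicate 1 was left out (limma adjusted p = 0.188), against -0.76 with the position index as a covariate. The bases before its start are shown because they belong to the carrier with the highest mean. They contained none of the 6 motifs described with Slc3a1. The sequence runs 5′ to 3′ on the gene's strand, at chr14:121505255-121505504 (GRCm38.p6, RefSeq), all in lower case because nothing matched.
Slc15a1: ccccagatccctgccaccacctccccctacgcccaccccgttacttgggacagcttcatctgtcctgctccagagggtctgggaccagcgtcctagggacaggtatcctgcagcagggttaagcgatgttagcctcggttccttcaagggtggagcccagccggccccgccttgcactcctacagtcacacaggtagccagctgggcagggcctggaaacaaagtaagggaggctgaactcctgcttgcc

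The neutral amino acid transporter Slc6a19 (B0AT1), a sodium-driven carrier of the brush border, was lower in every I/R library than in every sham library. It was at 96.0, 109.9 and 123.2 FPKM in I/R and at 125.7, 174.7 and 193.5 FPKM in sham, so the gap between the highest I/R and the lowest sham library was narrow. The means were 109.7 ± 13.6 FPKM in I/R and 165 ± 35.05 FPKM in sham (SD, n = 3 each). On the log2 scale the difference was -0.57 ± 0.22 (standard error, 95% interval -1.09 to -0.04). Adjusted over all genes its p was 0.543 (limma), and the exact permutation test gave p = 0.1. The change stayed between -0.75 and -0.44 with 1 library left out and was -0.65 with the position index as a covariate (limma adjusted p = 0.341). Its gene spans chromosome 13 from 73679745 to 73700780, with 1 listed transcript of 12 exons.

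Slc1a1 (EAAC1), the sodium-driven carrier of glutamate and aspartate, stood apart in 1 library. It lies on chromosome 19 (28835074 to 28913960), with 1 listed transcript of 12 exons. Its level was 37.3, 30.4 and 5.16 FPKM in I/R and 38.8, 28.1 and 34.3 FPKM in sham. In the other libraries it was between 28.1 and 38.8 FPKM, and I/R replicate 9 was the library with the highest position index. The log2 fold change of -0.82 ± 0.67 (standard error) had a 95% interval of -2.43 to 0.79 and an adjusted p of 0.691 by limma. It became 0.01 without I/R replicate 9. It was the carrier with the widest span among the 10, the highest library being 7.53 times the lowest.

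**Figure D2:**
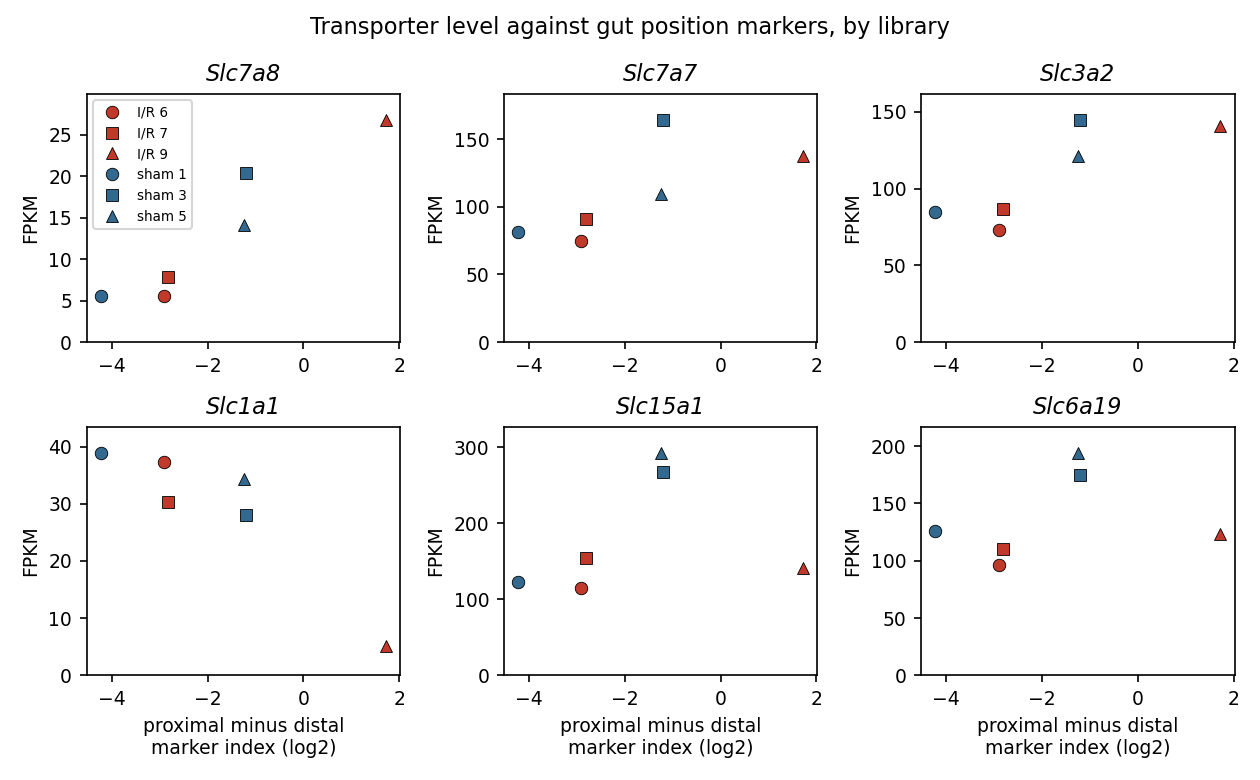
FPKM of 6 transporter genes (vertical axes from 0) against the position index of each library (mean log2 of proximal minus distal markers), with I/R in red and sham in blue. Slc7a8 climbs along the axis to 26.8 FPKM in I/R replicate 9, Slc1a1 drops to 5.16 FPKM there, and Slc15a1 and Slc6a19 peak in sham replicates 3 and 5.

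The apical exchanger of cystine and cationic amino acids is made of the heavy chain Slc3a1 (rBAT) and the light chain Slc7a9 (b0,+AT), the proteins whose defects cause cystinuria. Slc3a1, on chromosome 17 (85028376 to 85064236), was at 112.4, 110.3 and 94.4 FPKM in I/R and 105.6, 158.5 and 189.5 FPKM in sham. As for Slc15a1, sham replicates 3 and 5 were above all I/R libraries and sham replicate 1 was among them. The means were 106 ± 9.85 FPKM in I/R and 151 ± 42.4 FPKM in sham (SD, n = 3 each). The log2 difference of Slc3a1, -0.48 ± 0.25 (standard error), had a 95% interval of -1.07 to 0.11 and an adjusted p of 0.612 by limma. Without sham replicate 1 it was -0.71 (limma adjusted p = 0.279). Across the 10 genes, Slc15a1, Slc3a1 and Slc6a19 had all I/R libraries below both sham replicates 3 and 5, which held for 8.98% of all genes tested.

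Slc7a9 was at 73.9, 103.2 and 47.5 FPKM in I/R and 84.98, 122.7 and 80.1 FPKM in sham, with overlapping groups. Its log2 difference of -0.40 ± 0.32 (standard error) had a 95% interval of -1.17 to 0.37 and an adjusted p of 0.69 by limma. Without I/R replicate 9 it was -0.11. For Slc7a9, 3 transcripts were listed, and their shares moved between libraries of the same group. The transcript of 15 exons, whose start lies furthest upstream on chromosome 7 (35448796), held 31.1%, 23.2% and 4.52% of the gene's FPKM in I/R replicates 6, 7 and 9 and 10.6%, 11.6% and 41.7% in sham replicates 1, 3 and 5. These transcripts share most of their sequence, so the assembler's division of reads among them is uncertain, while the gene sum is less exposed to it. The ratio of Slc3a1 to Slc7a9 was 1.52, 1.07 and 1.99 in I/R and 1.24, 1.29 and 2.37 in sham. The log2 ratio differed by -0.08 between the groups (exact permutation p = 0.9, adjusted over 3 ratios 0.9).

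The bases before the start of Slc3a1 are shown because its window alone among the carriers held the HNF1 and HNF4 motifs, a choice made after the matches were seen. RefSeq windows from 250 bases before to 50 after a start were found for 8 of the 10 genes, and Slc6a6 and Slc7a5 had none. The window of Slc6a19 lay 8144 bases from the start of its listed transcript. Both strands were searched for 6 motifs. The HNF1 core was searched as GTTAAT and the HNF4 site as CAAAGTCCA. The GATA motif was AGATAA and the CDX motif was TTTATG. The ATF4-CHOP composite was TGATGNAAN, and the SP1 box was GGGCGG. Positions in Slc3a1 are counted from the RefSeq start, which lies upstream of the start of the listed transcript (85028376). Slc3a1 had 1 match each to the HNF4 site, 39 bases before the RefSeq start, and to the GATA motif, 119 bases before it. The HNF1 core also matched 1 time and is not printed. It begins 1 base after the first base of the RefSeq transcript, which is still before the start of the listed transcript. Of all 32851 windows, 0.475% held the HNF4 site, 11.2% the GATA motif and 7.10% the HNF1 core, and 35.7% held the SP1 box. Slc7a9 had 2 GATA matches, and Slc1a1, Slc3a2 and Slc7a8 had an SP1 box. None of the 8 windows held the CDX or the ATF4-CHOP motif, which occurred in 11.9% and 3.95% of all windows. These matches do not overlap each other in Slc3a1. In the sequence, at chr17:85028097-85028346 (GRCm38.p6, RefSeq, plus strand, 5′ to 3′), capitals mark the GATA and HNF4 matches.
Slc3a1: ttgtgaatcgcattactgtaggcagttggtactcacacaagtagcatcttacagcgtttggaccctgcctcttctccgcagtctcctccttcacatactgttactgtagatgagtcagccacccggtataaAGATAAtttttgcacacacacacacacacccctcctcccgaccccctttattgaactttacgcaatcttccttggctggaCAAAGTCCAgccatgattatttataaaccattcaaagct

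On the basolateral side, the heavy chain Slc3a2 (4F2hc, CD98) pairs with several light chains. Slc3a2, on chromosome 19 (8707617 to 8713879 for its main transcript), was at 72.8, 86.9 and 141.1 FPKM in I/R and 84.7, 144.7 and 121.1 FPKM in sham. Its main transcript of 9 exons held 93.5% to 94.98% of the gene's FPKM in I/R, against 90.5% to 96.8% in sham. For the gene sum the groups overlapped almost wholly. The log2 difference of -0.24 ± 0.31 (standard error) had a 95% interval of -0.99 to 0.51 and an adjusted p of 0.798 by limma.

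Slc7a7 (y+LAT1), the light chain that exports cationic amino acids to the blood and is mutated in lysinuric protein intolerance, was the most abundant of the 3 light chains measured. Its main transcript lies on chromosome 14 (54369445 to 54410216, 10 exons). It was at 74.7, 91.1 and 137.6 FPKM in I/R and 81.4, 164.3 and 109.4 FPKM in sham. The log2 difference of -0.21 ± 0.33 (standard error) had a 95% interval of -1.01 to 0.59 and an adjusted p of 0.832 by limma, and the difference turned to 0.05 without sham replicate 3. Ranked from the highest to the lowest library, Slc7a7 and Slc3a2 had the same order: sham replicate 3, I/R replicate 9, sham replicate 5, I/R replicate 7, sham replicate 1 and I/R replicate 6. This was noticed after the values were seen, and the share of all genes with this order was not counted.

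Slc7a8 (LAT2), a light chain that exchanges neutral amino acids, lies on the same chromosome (54722209 to 54781930, 11 exons) and was at 5.58, 7.83 and 26.8 FPKM in I/R and 5.54, 20.4 and 14.2 FPKM in sham. The group means were both 13.4 FPKM, with SD of 11.6 in I/R and 7.47 in sham (n = 3 each). Each group held both low and high libraries. The order of the 6 libraries for Slc7a8, from I/R replicate 9 down to sham replicate 1, was also the order for 3 of the 5 measured proximal markers, Lct, Gata4 and Fabp1, and 0.4% of all genes tested (48) had it. Slc40a1 and Ada, the other proximal markers, had other orders. The match was noticed after the values were seen. The log2 difference of Slc7a8, -0.13 ± 0.65 (standard error), had a 95% interval of -1.69 to 1.43 and an adjusted p of 0.956 by limma. It was -0.52 with the position index as a covariate, and its sign changed with the library left out, between -0.75 and 0.29. Its promoter is shown as that of the carrier with this library order. The GATA motif did not occur in its window, and its SP1 box is left in lower case. The stretch at chr14:54781931-54782136 (GRCm38.p6, RefSeq, minus strand, 5′ to 3′) ends where the listed transcript starts.
Slc7a8: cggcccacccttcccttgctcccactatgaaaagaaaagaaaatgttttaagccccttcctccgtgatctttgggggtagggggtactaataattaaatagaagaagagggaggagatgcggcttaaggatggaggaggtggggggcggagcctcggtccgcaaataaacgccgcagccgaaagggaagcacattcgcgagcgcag

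Slc7a5 (LAT1), the light chain for large neutral amino acids that is typical of dividing cells, was the least abundant of the 10 genes by group mean. Its listed transcript of 10 exons is on chromosome 8 (121881150 to 121907694). It was at 9.69, 5.61 and 5.74 FPKM in I/R and 7.36, 6.25 and 8.55 FPKM in sham. The groups overlapped. The log2 difference of -0.09 ± 0.26 (standard error) had a 95% interval of -0.72 to 0.53 and an adjusted p of 0.913 by limma. It changed sign with the library left out, between -0.32 and 0.03. Slc7a5 made up 10.8%, 5.37% and 3.37% of the 3 light chains in I/R and 7.80%, 3.27% and 6.47% in sham, a difference of 0.656 percentage points (exact permutation p = 0.9, adjusted over 3 ratios 0.9).

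The basolateral heavy chain and the sum of its light chains were high in the same libraries, and Slc7a7 made up 80.9% to 87.1% of that sum in I/R and 82.8% to 86.3% in sham. Slc7a5 did not share that order, being highest in I/R replicate 6, where Slc3a2 was lowest. The sum of Slc7a5, Slc7a7 and Slc7a8 was 89.96, 104.5 and 170.2 FPKM in I/R and 94.3, 191.0 and 132.1 FPKM in sham. Slc3a2 divided by that sum was 0.809, 0.831 and 0.829 in I/R and 0.898, 0.757 and 0.917 in sham. The 3 I/R ratios lay inside the sham range, and the ratio spanned far less than either of its terms. The log2 ratio differed by -0.05 (exact permutation p = 0.5, adjusted over 3 ratios 0.9). Slc7a7 was 5.14 times Slc7a8 in I/R replicate 9 and 14.7 times in sham replicate 1, the libraries at the ends of the position index.

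**Figure D3:**
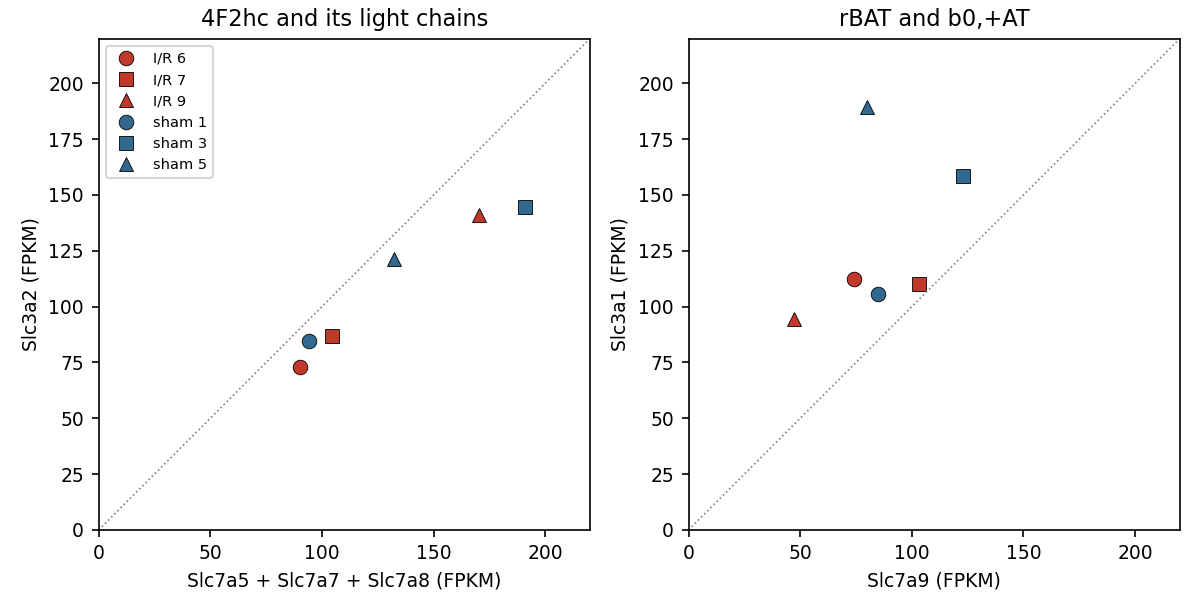
Left, Slc3a2 against the sum of its 3 light chains, and right, Slc3a1 against Slc7a9, in FPKM with 1 point per library (I/R red, sham blue) and a dotted line of equality. The left points keep to a ratio of 0.757 to 0.917 while the right points range from 1.07 to 2.37.

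The taurine transporter Slc6a6 (TauT) was the 1 carrier with a higher mean in I/R on the log2 scale. It was at 84.99, 63.6 and 87.3 FPKM in I/R, against 53.7, 54.5 and 62.4 FPKM in sham. Every I/R library was above every sham library, although I/R replicate 7 and sham replicate 5 were close. The means were 78.6 ± 13.1 FPKM in I/R and 56.9 ± 4.83 FPKM in sham (SD, n = 3 each). The difference on the log2 scale was 0.45 ± 0.19 (standard error, 95% interval 0.0044 to 0.90). Adjusted over all genes its p was 0.554 (limma), and the exact permutation test gave p = 0.1. It stayed between 0.37 and 0.59 with 1 library left out and was 0.41 with the position index as a covariate. Scaled by the epithelial genes it was 0.09, and by median ratios 0.30. The main transcript, of 15 exons on chromosome 6 (91684053 to 91759066), held 96.0% to 96.6% of the gene's FPKM in I/R, against 96.5% to 98.4% in sham.

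**Figure D4:**
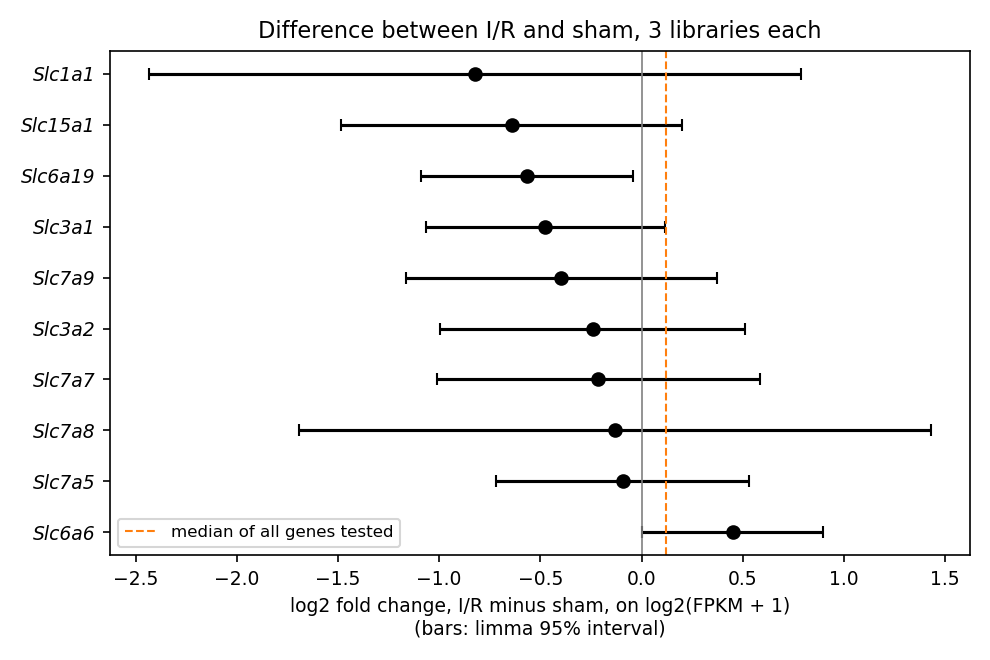
Log2 fold change (I/R minus sham, on log2(FPKM + 1)) of each of the 10 genes with its limma 95% interval. The dashed line is the median of all genes tested, 0.12. The interval lies wholly below 0 for Slc6a19 alone and wholly above 0 for Slc6a6 alone, with a lower end of 0.0044. None passed after adjustment.

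Summed over the 10 genes, carrier RNA came to 682.9, 762.9 and 810.5 FPKM in I/R, against 710.9, 1142 and 1105 FPKM in sham. Sham replicate 1 was again among the I/R libraries. Of the 10, 7 genes were lower in sham replicate 1 than in both other sham libraries, as 20.8% of all genes tested were. With that replicate left out, 1 carrier (Slc15a1) met a fold of at least 2 with an unadjusted p below 0.05 on the lower side, as 124 of 11893 genes did in that fit. On all 6 libraries it was a rule that no carrier met and that 1.92% of all genes met on the higher and 0.975% on the lower side.

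Other amino acid and peptide transporters were examined as a separate list. Of 38 genes named, 28 were in the table and 26 were tested. Of these, 15 had a lower and 11 a higher mean in I/R on the log2 scale, with a median log2 fold change of -0.18, and none passed. Slc43a2 (LAT4), which lets neutral amino acids leave the enterocyte on the basolateral side, was at 32.1, 37.2 and 32.5 FPKM in I/R and 63.5, 109.97 and 59.3 FPKM in sham. The groups did not overlap, and the log2 difference was -1.12 ± 0.26 (adjusted p = 0.432 by limma). The glycine transporter Slc6a9 (GlyT1) was at 3.28, 4.22 and 2.23 FPKM in I/R and 5.81, 8.44 and 8.37 FPKM in sham (-1.02 ± 0.27 on the log2 scale, with an adjusted p of 0.471 by limma), again without overlap. On the other side, Slc7a6 (y+LAT2), a further partner of Slc3a2, was at 3.91, 3.03 and 2.70 FPKM in I/R and 2.50, 0.871 and 1.64 FPKM in sham. The glutamate carrier Slc1a3 was at 1.17, 0.525 and 0.809 FPKM in I/R and 0.00976, 0.12 and 0.452 FPKM in sham. For Slc7a6 and Slc1a3 the groups did not overlap, and neither passed (limma adjusted p = 0.563 for Slc7a6 and 0.554 for Slc1a3).

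Proteins that anchor the carriers or keep up their ion gradients gave 6 lower and 3 higher means among 9 genes measured of 11 named, a median log2 fold change of -0.21 and no call. Pdzk1, a scaffold that binds brush border transporters, was at 75.7, 87.7 and 70.9 FPKM in I/R and 115.7, 161.0 and 137.4 FPKM in sham. Its groups did not overlap (-0.81 ± 0.19 on the log2 scale, with an adjusted p of 0.432 by limma). Atp1b3, a beta subunit of the sodium pump, was at 13.9, 29.3 and 25.7 FPKM in I/R and 26.6, 5.38 and 6.36 FPKM in sham. Slc9a3r1 (NHERF1), a further scaffold, was at 447.1, 168.1 and 192.4 FPKM in I/R and 797.0, 310.8 and 201.6 FPKM in sham. Arl6ip5, a regulator of Slc1a1 in rat, was at 50.4, 46.96 and 43.3 FPKM in I/R and 42.8, 33.1 and 39.1 FPKM in sham, without overlap. The limma adjusted p of these last 3 genes was from 0.624 to 0.738.

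Peptidases, which supply the substrates of these carriers, all had a lower mean in I/R. Of 16 genes named, 14 were measured, 14 were lower, 10 had groups that did not overlap and none passed, with a median log2 fold change of -0.55. Among all genes, the background shares given above are 37.4% for a lower mean and 5.89% for groups that did not overlap on that side. The list was chosen with earlier results of these data known, so these counts are a description and not a test. Dpep1, a membrane dipeptidase, was at 204.2, 199.4 and 145.1 FPKM in I/R and 312.2, 316.9 and 280.0 FPKM in sham (-0.74 ± 0.20 on the log2 scale, with an adjusted p of 0.471 by limma). Enpep, an aminopeptidase for acidic residues, was at 416.8, 432.2 and 399.3 FPKM in I/R and 573.4, 585.8 and 554.9 FPKM in sham. Mep1b, a meprin subunit, averaged 445 ± 36.0 FPKM in I/R and 665 ± 63.3 FPKM in sham, and Cndp2, a cytosolic dipeptidase, 260.0 ± 27.3 FPKM in I/R and 401 ± 69.9 FPKM in sham (SD, n = 3 each). In these 4 peptidases, named for their small p, sham replicate 1 was above all I/R libraries. It was also above all I/R libraries in every other peptidase measured except Ace and Mme, which were picked after their values were seen. In Ace and Mme sham replicate 1 fell inside the I/R range as for Slc15a1, with 116.3 FPKM for Ace and 39.8 FPKM for Mme.

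**Figure D5:**
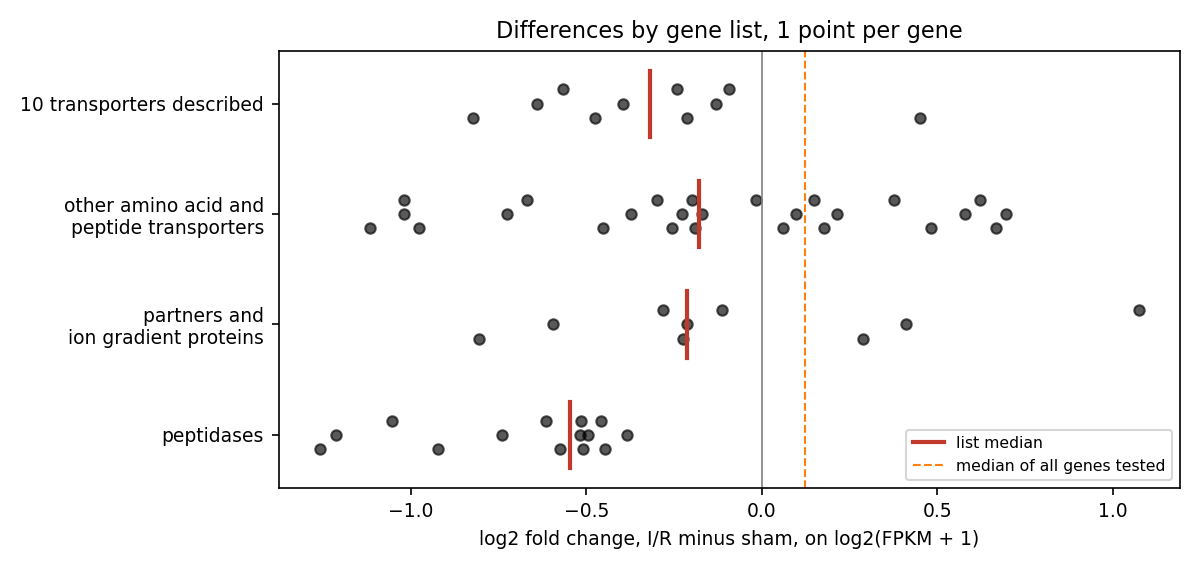
Log2 fold changes (I/R minus sham, on log2(FPKM + 1)) of the genes in 4 lists, with 1 point per gene, a red bar at each list median and a dashed line at the median of all genes tested (0.12). The list medians are -0.32, -0.18, -0.21 and -0.55 from top to bottom, and all 14 peptidases lie below 0.

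By level, the I/R means ran from Slc15a1 through Slc6a19 (109.7 FPKM), Slc3a1 (106 FPKM), Slc7a7 (101 FPKM), Slc3a2 (100.3 FPKM), Slc6a6 (78.6 FPKM), Slc7a9 (74.9 FPKM), Slc1a1 (24.3 FPKM) and Slc7a8 (13.4 FPKM) to Slc7a5 (7.01 FPKM). The 4 genes from Slc6a19 to Slc3a2 lay closer together than the SD of any one of them, and Slc6a6 and Slc7a9 likewise.

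By their profile over the 6 libraries, the genes most like Slc15a1 among 6690 compared were Cyp4f16, Fdx1 and Dnpep, whose centred log2(FPKM + 1) values differed from its own by a root mean square of 0.15, 0.16 and 0.16. Cyp4f16, for example, was at 34.7, 34.5 and 36.5 FPKM in I/R and 30.2, 70.6 and 64.1 FPKM in sham. For Slc7a5 they were Eef2k, Ccpg1 and Ncoa6, with root mean square differences of 0.08, 0.09 and 0.11.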

How the data were processed

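RNA of 3 I/R and 3 sham samples of small intestine was sequenced from stranded libraries. The deposited table held FPKM per transcript, computed by the authors. Their notes list HISAT2 (2.0.4), StringTie, cutadapt and the build mm10, and the sources used here give no annotation. The lowest value that a listed transcript reached in its higher group mean was 0.5 FPKM. FPKM keep no counts, so depth is unknown and no counting interval is given. Listed FPKM summed to 315726 to 330814 per library. Of 19763 transcripts, 19702 matched GENCODE M21, 61 were kept singly, and FPKM were summed per gene.

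The comparison of I/R with sham used limma 3.58.1 and R 4.3.3 (mean-variance trend, 2-sided) on log2(FPKM + 1) for 12006 genes whose mean over all samples reached 0.5 FPKM. Fold changes on this scale understate those of low genes. Benjamini-Hochberg adjustment ran over all genes, and the threshold was 0.05. A second rule took a fold of at least 2 with an unadjusted p below 0.05. Ratios had an exact permutation test, with 0.1 FPKM added to each term. The fit was tested on simulated data.

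The members and lists were chosen with earlier results of these data known. The motifs were chosen likewise. Named genes were the 10 carriers, up to 4 genes of each other list by smallest p, and the 3 genes nearest in profile to Slc15a1 and Slc7a5. Vil1, Ace, Mme, the position markers and genes listed at 0 were named after their values were seen. So were Asns, Ddit3, Psat1, Shmt2 and Phgdh of the amino acid response. Some genes these rules name are not reported here. Alternatives were pseudocounts, filters, 3 scalings (median ratios, quantiles and the 6 epithelial genes Epcam, Cdh1, Krt8, Krt18, Krt19 and Cldn7), no trend, the top transcript and leaving out each library. A position covariate was added after seeing the data.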

Additional observations from a re-analysis of the deposited data

How the results depend on the processing

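No carrier passed the adjusted threshold under any of the 16 alternatives run. Slc15a1, Slc3a1, Slc3a2, Slc6a19, Slc6a6 and Slc7a9 kept their direction in all 16. With 1 library left out, the log2 fold change ranged from -1.03 to -0.41 for Slc15a1, -1.31 to 0.00847 for Slc1a1, -0.71 to -0.29 for Slc3a1, -0.51 to -0.04 for Slc3a2, -0.75 to -0.44 for Slc6a19, 0.37 to 0.59 for Slc6a6, -0.32 to 0.0268 for Slc7a5, -0.46 to 0.052 for Slc7a7, -0.75 to 0.29 for Slc7a8 and -0.66 to -0.11 for Slc7a9. Slc1a1 turned without I/R replicate 9 (0.00847), Slc7a7 without sham replicate 3 (0.052), Slc7a5 without I/R replicate 7 (0.0268) or 9 or sham replicate 5, and Slc7a8 without I/R replicate 6 or 7 or sham replicate 3. The log2 ratio of Slc3a1 to Slc7a9 ranged from -0.29 to 0.22, that of Slc3a2 to its light chains from -0.14 to -0.00255, and the Slc7a5 share from -1.48 to 2.22 percentage points. Genes called over the whole table numbered 2 higher and 2 lower. They ranged from 0 to 4 higher and 0 to 5 lower with 1 library left out. There were 0 higher after median-ratio scaling, 1 higher after quantile normalization, 1 higher with the top transcript, 1 lower at a mean of at least 5 FPKM, and 1 higher and 4 lower when scaled by epithelial genes. The rule of a fold of at least 2 took 1 carrier on the lower side when scaled by epithelial genes (Slc15a1, -1.01), and 0 to 1 with a library left out. That scaling moved the median of all genes to -0.16, and median ratios moved it to 0.01. The epithelial genes were themselves not level: 4 of 6 had a higher mean in I/R, among them Krt18 at 201.5, 186.2 and 481.2 FPKM in I/R and 121.5, 86.2 and 164.7 FPKM in sham. The cause of these changes was not tested. No paired analysis was possible because the groups share no replicate number.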

Other observations

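Transcription factors of the gut epithelium and genes of the amino acid stress response were measured in the same fit, and none passed the adjusted threshold. Of 11 transcription regulators, the I/R mean was above sham for 6 and below it for 5, with a median log2 fold change of 0.06. Hnf4a, a regulator of enterocyte genes, was at 119.0, 65.8 and 33.4 FPKM in I/R and 161.5, 195.5 and 200.4 FPKM in sham, so the groups did not overlap (-1.51 ± 0.44 on the log2 scale, adjusted p = 0.484 by limma). Gata6 was at 33.2, 26.2 and 20.2 FPKM in I/R and 7.22, 11.1 and 28.8 FPKM in sham, and Myc at 16.9, 5.73 and 12.0 FPKM in I/R and 6.76, 4.24 and 8.28 FPKM in sham.

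The amino acid response is the program that ATF4 turns on when amino acids run short, and Slc7a5 and Slc3a2 are among its known targets. Of its 10 genes measured, 8 had a lower mean in I/R, as 37.4% of all genes tested did, and the median log2 fold change was -0.40. The list did not move as one. Asns, Ddit3 (CHOP) and Psat1 differed by -0.22, -0.11 and -0.05 on the log2 scale. The 2 genes with a higher mean were Shmt2 (0.14) and Phgdh (0.72), and Phgdh was higher in every I/R library than in every sham library. The lowest adjusted p was that of Chac1, a glutathione-degrading enzyme, at 4.30, 1.46 and 3.16 FPKM in I/R and 26.2, 22.9 and 23.3 FPKM in sham (limma adjusted p = 0.0944). Trib3, a target and inhibitor of this pathway, was at 9.87, 5.41 and 14.5 FPKM in I/R and 16.5, 24.9 and 25.6 FPKM in sham, and the stress protein Sesn2 at 2.92, 2.87 and 1.96 FPKM in I/R and 5.21, 4.11 and 4.12 FPKM in sham. Atf4 itself was at 180.5, 31.5 and 46.9 FPKM in I/R and 166.3, 220.1 and 213.7 FPKM in sham. As noted after the values were seen, in I/R replicates 7 and 9, the libraries low in Atf4, Slc7a5 was at 5.61 and 5.74 FPKM, below all 3 sham libraries, and in I/R replicate 6 both genes were within or above the sham range. The sham libraries were ordered otherwise. Sham replicate 3 had the most Atf4 (220.1 FPKM) and, within sham, the least Slc7a5 (6.25 FPKM). Sham replicate 1 had the least Atf4 of its group (166.3 FPKM) and more Slc7a5 (7.36 FPKM). In I/R replicate 6, with Atf4 inside the sham range, Chac1 and Trib3 were still below every sham library. Slc3a2 had another order of libraries than Atf4, at 72.8, 86.9 and 141.1 FPKM in I/R and 84.7, 144.7 and 121.1 FPKM in sham. A link between Atf4 and Slc7a5 or Slc3a2 was not tested, and only RNA was measured.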
